A study of Homo sapiens with 12 samples.

Results

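The release of paused RNA polymerase II into productive elongation depends on a small set of factors, and 9 of their genes were followed here in a triple-negative breast cancer cell line after knockdown of the pausing factor NELFA, of the transcriptional coactivator YAP, or of both. They were taken by symbol from the deposited count table, which lists 58051 genes: CDK9, CCNT1 and CCNT2 for the kinase P-TEFb, HEXIM1, LARP7 and MEPCE for the 7SK small nuclear ribonucleoprotein (snRNP), SUPT4H1 and SUPT5H for DSIF, and SUPT6H for the elongation factor SPT6. The rule uses symbols and no measured value. All 9 were found, and all 9 passed the filter on low counts in every comparison.

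MDA-MB-231 cells were transfected with pools of siRNA at 50 to 100 nM in 4 groups of 3 libraries: a non-targeting pool (siControl), a pool against NELFA (siNELFA), a pool against YAP1 (siYAP), and both targeting pools together (siNELFA+siYAP). The labels give RNA extraction at 48 h and 72 h without saying which library belongs to which time, whereas the study's methods give 72 h and biological replicates for the sequenced RNA. Total RNA depleted of ribosomal RNA was sequenced. All groups share the same parental line, and a transient pool leaves part of the target RNA in place. The library names number siControl, siNELFA and siYAP from 1 to 3, whereas the siNELFA+siYAP libraries carry the number 1 in common with an index of 1 to 3 after it, so that their independence as experiments is not settled by the labels.

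Soon after initiation, RNA polymerase II is held near the promoter by DSIF (the proteins SPT4 and SPT5) and by NELF, of which NELFA is a subunit. P-TEFb, a kinase made of CDK9 and cyclin T1 or T2, phosphorylates SPT5, NELF and the tail of the polymerase, after which NELF leaves, DSIF turns into a positive elongation factor and SPT6 joins the moving complex. Much of the cell's P-TEFb is stored in an inactive form in the 7SK snRNP, where HEXIM1 inhibits the kinase, LARP7 protects the 7SK RNA and MEPCE caps it. YAP acts with TEAD factors at promoters and enhancers and is known to recruit elongation factors to its target genes. Because the assay measured RNA per library, neither kinase activity nor the share of P-TEFb bound to 7SK was observed, and in such bulk RNA a smaller number of expressing cells and less RNA per cell cannot be told apart.

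The deposited counts summed to 9608145 to 18803104 per library, and a single one of the 9 genes received between 136 counts (MEPCE, siControl replicate 1) and 4634 counts (SUPT6H, siNELFA+siYAP replicate 3). The targeted genes were lower in the libraries that should lack them. NELFA stood at 25.3 to 27.9 CPM (the count scaled to library size, with TMM factors throughout) in siControl, at 7.11 to 9.96 in siNELFA and at 6.35 to 8.20 in siNELFA+siYAP, and YAP1 stood at 247 to 302 CPM in siControl, 37.7 to 46.2 in siYAP and 40.1 to 44.1 in siNELFA+siYAP. The mesenchymal markers expected of MDA-MB-231 (VIM, CD44, AXL, CAV1, MSN and LGALS1) were present in all 12 libraries, the lowest value being 156 CPM for LGALS1. ESR1, PGR, GRHL2 and ESRP1 did not exceed 0.433 CPM, and the leukocyte gene PTPRC did not exceed 0.385 CPM, while the endothelial gene PECAM1 lay between 1.76 and 8.88 CPM. The epithelial gene CDH1, which this line normally lacks, went against the label in 3 libraries, with 24.9, 47.0 and 16.3 CPM in replicate 1 of siControl, siNELFA and siYAP against at most 0.936 CPM in the other 9 libraries. The plot of fold changes therefore shows each comparison between groups with and without those libraries, and the text gives the values without them that moved most. Their part in the results was not tested.

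To show the sequences from which these genes are transcribed, the window of 150 bases upstream of the RefSeq start was read for all 9 genes, which have 14 annotated starts in the table used (GRCh38.p14). Of these, 4 are printed, those of each gene whose first listed window held at least 100 adjoining bases outside annotated untranslated regions. Parts annotated as untranslated region were left out, and the choice was made after expression values had been seen. Capitals mark 6 short motifs searched on both strands, whose letters are given below with their counts, and in CDK9 a GC box and an ETS core overlap.
CDK9, chr9:127785884-127786033, plus strand: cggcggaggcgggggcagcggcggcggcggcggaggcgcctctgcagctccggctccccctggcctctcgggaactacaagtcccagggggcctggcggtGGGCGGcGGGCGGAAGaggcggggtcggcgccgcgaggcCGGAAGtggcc
HEXIM1, chr17:45148325-45148474, plus strand: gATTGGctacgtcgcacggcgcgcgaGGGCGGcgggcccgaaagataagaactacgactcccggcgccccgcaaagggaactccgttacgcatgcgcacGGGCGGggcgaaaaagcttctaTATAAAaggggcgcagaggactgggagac
LARP7, chr4:112636993-112637106, plus strand: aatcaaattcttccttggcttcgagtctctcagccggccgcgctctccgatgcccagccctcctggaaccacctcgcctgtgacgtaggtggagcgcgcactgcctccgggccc
SUPT6H, chr17:28662055-28662197, plus strand: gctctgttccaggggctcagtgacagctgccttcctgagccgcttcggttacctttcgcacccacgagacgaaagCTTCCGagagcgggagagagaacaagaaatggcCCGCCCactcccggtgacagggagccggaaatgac

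HEXIM1 alone among the 9 held the exact TATA box letters TATAAA, starting 29 bases before its RefSeq start. Of all 35116 RefSeq windows of this length 6.71% hold these letters. Variants were not searched, and the MEPCE window at chr7:100428640-100428789 holds the letters TATATAAG, which were not counted. A GC box (letters GGGCGG) was present in 8 of the 14 windows (36.8% of all windows), covering CDK9, CCNT2, HEXIM1, MEPCE, SUPT4H1, SUPT5H and SUPT6H. The ETS core (letters CGGAAG) was present in 4 windows (12.5% of all), those of CDK9, CCNT1, SUPT4H1 and SUPT6H, and the CCAAT box in 3 windows (23.5% of all), those of HEXIM1, LARP7 and MEPCE, that of LARP7 lying in the part not printed. The core letters of a TEAD site, GGAATG, were found in a single window, that of CCNT1 (7.08% of all), and those of an E-box, CACGTG, in a single window of MEPCE (4.57% of all). The CDK9 window reached 80.7% G and C, against a median of 60.0% over all windows. These matches describe letters and not bound sites.

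The genes lie on 7 chromosomes in the GENCODE release 44 annotation of GRCh38, the build of the deposited counts though not their annotation release. CDK9 (ENSG00000136807) spans chr9:127785679-127790792, CCNT1 (ENSG00000129315) chr12:48688458-48716998 and CCNT2 (ENSG00000082258) chr2:134918235-134959342. HEXIM1 (ENSG00000186834), which has 1 exon, spans chr17:45148475-45152099, LARP7 (ENSG00000174720) chr4:112637077-112657696 and MEPCE (ENSG00000146834) chr7:100428322-100434126. SUPT4H1 (ENSG00000213246) spans chr17:58345175-58353093, SUPT5H (ENSG00000196235) chr19:39436156-39476670 and SUPT6H (ENSG00000109111) chr17:28662198-28702679. Some exons are shared with other genes, 1318 bases of LARP7 with MIR302CHG on the opposite strand and 577 bases of SUPT4H1 with TSPOAP1-AS1, also opposite. On the same strand MEPCE shares 2067 bases with ENSG00000289690 and SUPT4H1 1325 bases with ENSG00000285897, and reads in those stretches cannot be told apart by strand. The libraries were stranded, but the strand setting of the counting is not given in the sources used here, so reads of opposite-strand partners could also have been counted with these genes.

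Across the genes, DSIF and SPT6 transcripts were the more abundant and the cyclins and MEPCE the less abundant on the deposited TPM scale, which accounts for transcript length. In siControl, SUPT5H averaged 74.4 ± 7.92 TPM (SD, n = 3, as for all group values here) and lay above 90.4% of the genes with at least 1 TPM. SUPT6H followed with 57.6 ± 11.0 TPM and SUPT4H1 with 48.3 ± 3.31 TPM. The libraries of SUPT5H lay above those of SUPT6H, and those of SUPT6H and SUPT4H1 overlapped. LARP7 averaged 35.2 ± 14.5 TPM and CDK9 35.0 ± 14.6 TPM, and these like means came from replicate 1, at 51.9 TPM for LARP7 and 18.3 for CDK9. In replicates 2 and 3 CDK9 stood at 45.6 and 41.1 TPM, above LARP7 at 28.1 and 25.6. HEXIM1 averaged 25.9 ± 2.81 TPM and did not overlap with the next gene. CCNT2 at 18.6 ± 2.93 TPM, CCNT1 at 16.7 ± 0.142 TPM and MEPCE at 13.8 ± 6.63 TPM closed the order and overlapped with each other in turn. Over replicates 2 and 3 alone these 3 genes averaged 17.4, 16.7 and 17.6 TPM.

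On the TPM scale over all 3 libraries SUPT5H came first in all 4 groups and SUPT6H and SUPT4H1 took the next places. MEPCE was last in siControl, siNELFA and siNELFA+siYAP and at rank 7 in siYAP. Over replicates 2 and 3 alone CCNT1 was last in siControl and siNELFA, at 16.7 and 13.9 TPM, and MEPCE was above it in both, and SUPT4H1 at 61.1 TPM came before SUPT5H at 60.7 in siNELFA. A second measure per length, CPM per kilobase of all annotated exons, gave a different order in siControl, with SUPT6H first at 20.0 ± 3.69, SUPT4H1 at 19.7 ± 2.14, HEXIM1 at 19.0 ± 1.17 and SUPT5H at 17.4 ± 2.66. LARP7 moved from rank 4 on the TPM scale to rank 9 on this one, at 5.06 ± 1.43 CPM per kilobase, as its annotated exons cover 8094 bases in all whereas its canonical transcript has 2107. An order between genes thus depended on which transcript length was assumed, while the low place of both cyclins and MEPCE relative to DSIF and SPT6 was common to both measures.

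**Figure D1:**
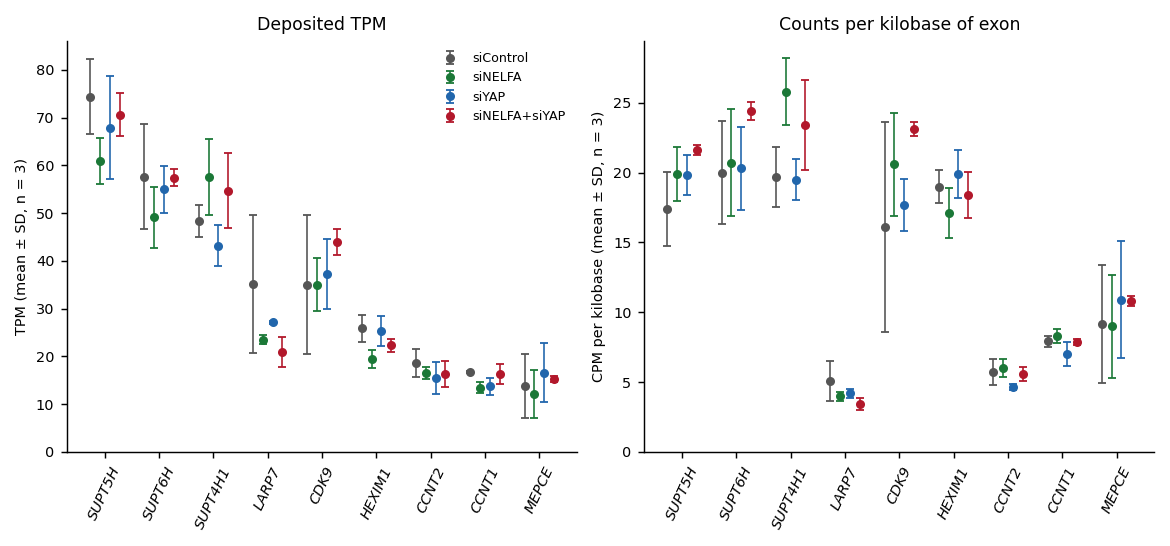
Level per length of the 9 genes in the 4 siRNA groups, as deposited TPM (left) and as CPM per kilobase of annotated exon (right), ordered by TPM in siControl; points are means and bars are SD over 3 libraries. SUPT5H is highest in TPM in all 4 groups, from 60.9 to 74.4, and LARP7 changes place between the panels.

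For MEPCE, CDK9 and SUPT6H, replicate 1 was the lowest library in siControl, siNELFA and siYAP and stood furthest from the others. This did not hold for every gene, as HEXIM1 in siNELFA was lowest in replicate 2. For MEPCE, log2 CPM in replicate 1 minus the mean of replicates 2 and 3 was -1.37 (siControl), -1.22 (siNELFA) and -1.11 (siYAP), whereas it was 0.05 in the double knockdown. The same difference for CDK9 was -1.43, -0.47 and -0.27 in the first 3 groups, and for SUPT6H it was -0.48, -0.45 and -0.37. For LARP7 it was 0.65 in siControl. Those of CCNT1 ranged from -0.30 to 0.00 and those of HEXIM1 from 0.10 to 0.20 over the 4 groups. These are log2 differences between libraries and carry no test.

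The mean difference of MEPCE over siControl, siNELFA and siYAP, -1.23 on the log2 scale, was lower than all but 3.25% of the 12971 genes averaging at least 50 counts, and 12.3% of genes lay below CDK9. Transcripts with more G and C were the lower ones in siControl replicate 1, with a Spearman rho of -0.40 between GC content and this difference over 12842 genes that share 1 set of libraries. The rho was -0.00178 in siNELFA and 0.134 in siYAP, so that the low MEPCE and CDK9 values came with such a relation in siControl and not in siNELFA or siYAP. MEPCE (61.4% G and C), SUPT5H (58.0%) and CDK9 (55.1%) are the richest of the 9 genes and CCNT2 (37.0%) and LARP7 (37.7%) the poorest, around a median of 48.3%. The part of GC content, of depth and of the source of the CDH1 reads in these values was not tested.

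**Figure D2:**
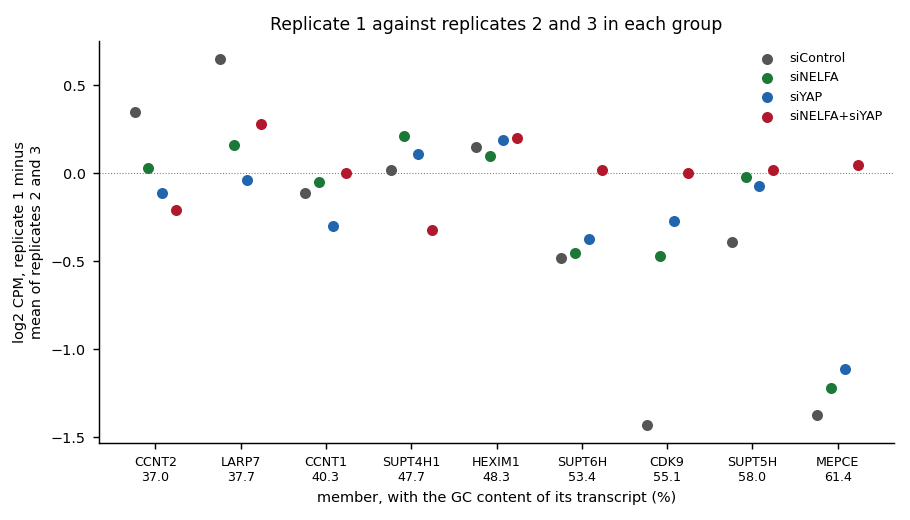
Difference in log2 CPM between replicate 1 and the mean of replicates 2 and 3 for each of the 9 genes (1 point per group), ordered by the GC content of the canonical transcript. MEPCE lies at -1.37 to -1.11 in siControl, siNELFA and siYAP and at 0.05 in siNELFA+siYAP.

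In P-TEFb, CDK9 encodes the kinase itself. In replicates 1 to 3, in this order, its CPM were 22.4, 59.4 and 63.4 for siControl, 49.0, 68.0 and 68.4 for siNELFA, 46.7, 56.6 and 56.3 for siYAP, and 69.4, 71.0 and 68.0 for the double knockdown. The 3 double-knockdown libraries lay above every siControl and every siYAP library, and overlapped with siNELFA. CCNT1, the cyclin most used by P-TEFb, had CPM of 55.5, 58.6 and 60.9 for siControl, 59.8, 58.4 and 65.6 for siNELFA, 44.6, 56.5 and 53.8 for siYAP, and 57.9, 56.3 and 59.9 for the double knockdown. The siYAP libraries of CCNT1 lay below all those of siNELFA, and every other pair of groups overlapped. CCNT2, the alternative cyclin, had CPM of 60.5, 51.4 and 43.5 for siControl, 55.0, 48.2 and 60.3 for siNELFA, 40.0, 44.3 and 42.2 for siYAP, and 45.9, 52.2 and 54.4 for the double knockdown. The CCNT2 libraries of siYAP lay below all those of siNELFA and siNELFA+siYAP and overlapped with siControl. SUPT4H1 was also lower in every siYAP library than in every siNELFA library. The share of all genes without overlap between siYAP and siNELFA was not computed.

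In the 7SK snRNP, HEXIM1 encodes the inhibitor of P-TEFb. Its CPM were 73.7, 67.3 and 65.6 for siControl, 64.9, 54.7 and 66.6 for siNELFA, 78.6, 66.2 and 71.5 for siYAP, and 73.3, 61.3 and 65.8 for the double knockdown, with all groups overlapping. LARP7, which binds the end of 7SK RNA, had CPM of 54.2, 36.2 and 32.5 for siControl, 34.5, 29.4 and 32.6 for siNELFA, 33.4, 37.0 and 31.7 for siYAP, and 31.5, 27.1 and 24.6 for the double knockdown. Every double-knockdown library was below every siControl and siYAP library. MEPCE, the capping enzyme of 7SK RNA, had CPM of 14.7, 36.4 and 41.4 for siControl, 15.8, 37.8 and 37.2 for siNELFA, 20.6, 45.9 and 44.1 for siYAP, and 37.1, 36.7 and 35.0 for the double knockdown. Its range within the 3 groups with a low replicate 1 was wider than any difference between group means.

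In DSIF, SUPT4H1 encodes the small subunit SPT4. It had CPM of 41.0, 36.3 and 45.2 for siControl, 58.9, 52.8 and 49.1 for siNELFA, 42.6, 41.9 and 37.1 for siYAP, and 41.6, 54.8 and 49.7 for the double knockdown. Only the siNELFA libraries of SUPT4H1 lay entirely above siControl, and they also lay above all siYAP libraries. SUPT5H, the large subunit SPT5 that P-TEFb phosphorylates, had CPM of 123.1, 157.4 and 166.2 for siControl, 168.0, 154.9 and 187.7 for siNELFA, 163.5, 161.1 and 183.7 for siYAP, and 186.7, 186.5 and 181.2 for the double knockdown. SUPT6H, a histone chaperone that travels with the polymerase, had CPM of 165.9, 224.7 and 239.3 for siControl, 174.3, 224.6 and 253.9 for siNELFA, 179.0, 222.0 and 240.1 for siYAP, and 259.2, 261.4 and 249.2 for the double knockdown. For both genes the double-knockdown libraries lay above all siControl libraries.

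**Figure D3:**
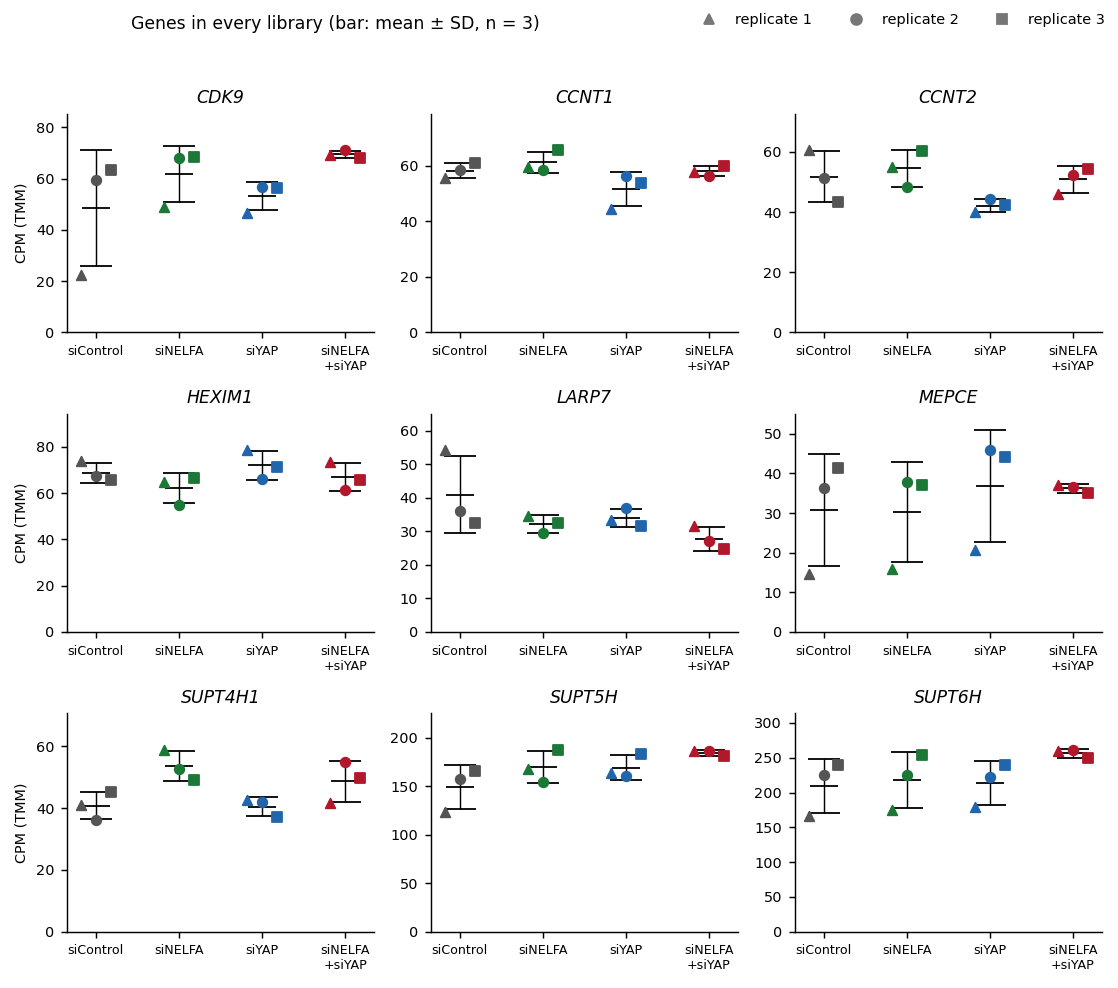
CPM with TMM scaling of the 9 genes in each of the 12 libraries, by siRNA group (triangle, circle and square for replicates 1 to 3), with the mean and SD of each group. The siNELFA+siYAP libraries stay close together for CDK9 (68.0 to 71.0) and MEPCE (35.0 to 37.1), and replicate 1 is low for MEPCE in the other 3 groups.

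Knockdown of NELFA alone was compared with siControl to ask whether loss of a pausing factor is met by a change in the factors that release the pause. None of the 9 genes passed an adjusted p of 0.05 in edgeR's quasi-likelihood test with Benjamini-Hochberg adjustment, and none had an unadjusted p under 0.05 or was called by DESeq2 or limma. Over 17727 genes 0.00564% passed the adjusted threshold and 4.46% the unadjusted one in edgeR, and DESeq2 called 0.158%. Their median log2 fold change was 0.07, against 0.00 over all genes tested, with 6 genes above 0 and 3 below. SUPT4H1 stood highest, at a log2 fold change of 0.39 (SE 0.17), 1.31 times siControl (edgeR adjusted p = 1.00), and it was the single gene whose groups did not overlap, a pattern seen in 12.2% of all genes. CDK9 had 0.35 (SE 0.38) and LARP7 -0.35 (SE 0.24), both resting on siControl replicate 1, without which they came to 0.02 and -0.09. Without replicate 1 of both groups they came to 0.16 and -0.14.

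Replicate numbers pair siControl with siNELFA, and once the fit took these numbers as a block it called 5.21% of all genes but none of these 9. In that fit SUPT4H1 had a log2 fold change of 0.39 (SE 0.13) and an adjusted p of 0.108, and CDK9 had 0.45 (SE 0.17) and 0.155, by edgeR. Without replicate 1 of both groups SUPT4H1 had 0.33 (SE 0.14, adjusted p = 0.349 by edgeR), and no gene of the 9 was called where 0.0996% of all genes were. With the block and without that pair, a fit to 4 libraries, SUPT4H1 was called at 0.33 (SE 0.11, edgeR adjusted p = 0.0218), as were 15.7% of all genes. On TPM the median of all genes was -0.19, and CCNT1, SUPT5H and SUPT6H, above 0 on counts, had -0.30, -0.28 and -0.22, which is -0.11, -0.09 and -0.02 relative to that median. SUPT4H1 had 0.43 relative to it.

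Knockdown of YAP alone was compared with siControl in the same way. In edgeR none of the 9 passed the adjusted threshold, none had an unadjusted p under 0.05, none was called by DESeq2 or limma, and for none did the libraries of siYAP and siControl fail to overlap. Over all 17296 genes tested these shares were 0.00578%, 1.30% and, for groups that do not overlap, 7.75%, and DESeq2 called 0.0116%. The log2 fold changes ran from -0.30 (SE 0.19) for CCNT2 to 0.26 (SE 0.44) for MEPCE, with a median of 0.02 against 0.00 over all genes. Those of CDK9 (0.13, SE 0.36), LARP7 (-0.27, SE 0.24) and CCNT2 again rested on replicate 1, since without it in both groups they were -0.12 (SE 0.11), 0.001 (SE 0.14) and -0.13 (SE 0.13), and 0.00559% of all genes were then called and none of the 9. HEXIM1, the inhibitor, stood at 0.06 (SE 0.17).

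In the double knockdown the LARP7 libraries lay below and the CDK9, SUPT5H and SUPT6H libraries above all siControl libraries, but none of the 9 genes passed the adjusted threshold by edgeR, DESeq2 or limma. This threshold was passed by 0.428% of 17533 genes in edgeR and by 7.65% in DESeq2, and an unadjusted p under 0.05 by 18.5% of all genes and by LARP7 alone among the 9. LARP7 had a log2 fold change of -0.58 (SE 0.22), 67.1% of the siControl level (edgeR adjusted p = 0.239). SUPT5H stood at 0.30 (SE 0.13, edgeR adjusted p = 0.281) and SUPT6H at 0.28 (SE 0.15, adjusted p = 0.358). CDK9 had the highest value of the 9, 0.51 (SE 0.34, edgeR adjusted p = 0.469). Groups without overlap, as for these 4 genes, were also found for 29.8% of all genes. Between the double-knockdown libraries the coefficient of variation was 1.67% to 3.05% for CDK9, CCNT1, MEPCE, SUPT5H and SUPT6H, below that of each other group, but 13.6% for SUPT4H1, above that of each other group. For CCNT2 (8.73%), HEXIM1 (9.03%) and LARP7 (12.6%) it lay within the range of the other groups, and the part of the shared number of these libraries was not tested. CCNT1 (-0.02, SE 0.11), CCNT2 (-0.04, SE 0.16) and HEXIM1 (-0.06, SE 0.13) stayed near 0, and the median of the 9 was 0.22 against -0.03 over all genes, or 0.10 against 0.00 without siControl replicate 1.

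These values shrank without siControl replicate 1, which is both the shallowest library and one of those with CDH1. CDK9 then had 0.17 (SE 0.077), LARP7 -0.32 (SE 0.12), SUPT6H 0.14 (SE 0.057) and MEPCE -0.11 (SE 0.098) in place of 0.22 (SE 0.33). SUPT5H, at 0.19 (SE 0.059), passed the adjusted threshold (edgeR adjusted p = 0.0311), but so did 24.4% of all genes. On TPM, where the median of all genes moved by -0.13, SUPT5H had -0.07, which is 0.06 above that median, and LARP7 had -0.66, which is 0.53 below it.

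**Figure D4:**
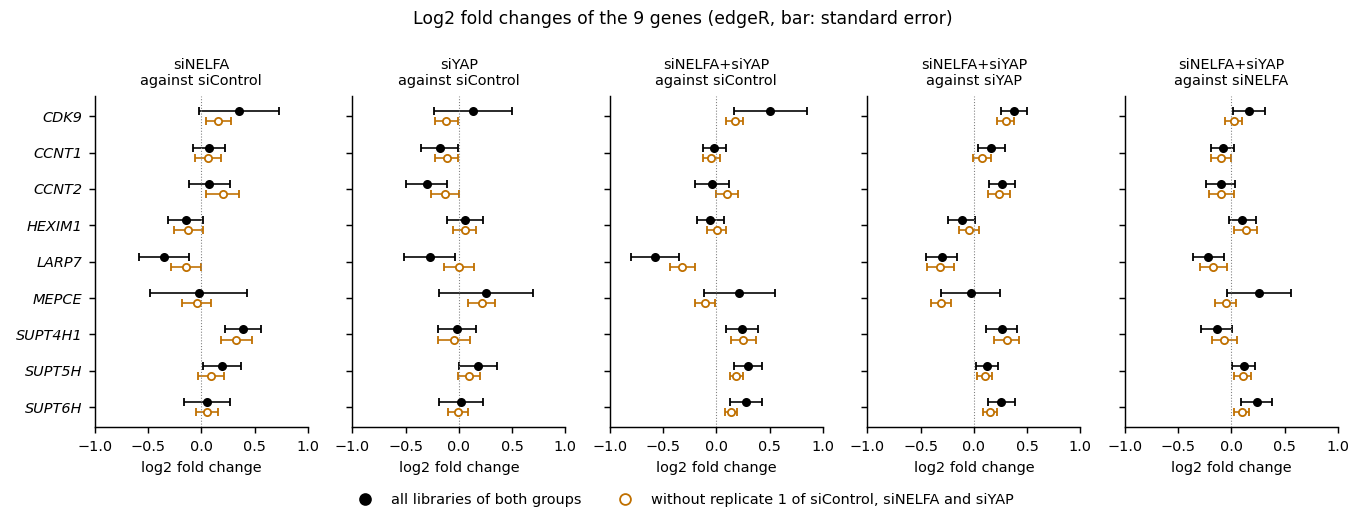
Log2 fold changes of the 9 genes in the 5 comparisons between groups, with standard errors from edgeR, with all libraries (filled) and without replicate 1 of siControl, siNELFA and siYAP (open). CDK9 in siNELFA+siYAP against siControl moves from 0.51 to 0.17 and its standard error from 0.34 to 0.077.

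The double knockdown was next compared with siYAP, which adds the NELFA pool to YAP-depleted cells. Its libraries did not deviate together with those of any other group (correlations of -0.0514 to 0.0276). In every comparison with them, and in the interaction, the added pool and a separate experiment cannot be told apart. The CDK9 libraries at 68.0 to 71.0 CPM lay above the siYAP libraries at 46.7 to 56.6, with a log2 fold change of 0.38 (SE 0.12), 1.30 times siYAP (edgeR adjusted p = 0.234). None of the 9 passed the adjusted threshold in edgeR, DESeq2 or limma, as 0.035% of 17167 genes did in edgeR and 4.36% in DESeq2, and CDK9 was the one gene of the 9 among the 15.5% of genes with an unadjusted p under 0.05. CCNT2 had 0.26 (SE 0.12), SUPT6H 0.26 (SE 0.13) and LARP7 -0.30 (SE 0.15), each without overlap between groups, like CDK9 and like 26.5% of all genes. The median of the 9 was 0.16, against -0.03 over all genes. Without siYAP replicate 1, CDK9 at 0.30 (SE 0.081, edgeR adjusted p = 0.0241) and MEPCE at -0.31 (SE 0.094, adjusted p = 0.0393) were called, when 16.5% of all genes were, and MEPCE with all libraries had -0.03 (SE 0.28). SUPT6H then came to 0.15 (SE 0.064).

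Against siNELFA, the double knockdown adds the YAP pool to NELFA-depleted cells, with the same limit as against siYAP. None of the 9 passed the adjusted or the unadjusted threshold in edgeR, none was called by DESeq2 or limma, and none had groups without overlap, while over 17463 genes these shares in edgeR were 0.00573%, 6.62% and 15.1%, and DESeq2 called 0.258%. The log2 fold changes ran from -0.22 (SE 0.15) for LARP7 to 0.25 (SE 0.30) for MEPCE. Without siNELFA replicate 1 that of MEPCE was -0.05 (SE 0.10), the one of SUPT6H went from 0.24 (SE 0.14) to 0.097 (SE 0.069), and none of the 9 was among the 1.25% of genes called.

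Whether NELFA knockdown acted differently with and without YAP was tested as an interaction over the 12 libraries. None of the 9 genes passed in edgeR, and 0% of 18525 genes did. No gene of the 9 was among the 1.76% with an unadjusted p under 0.05, and DESeq2 and limma called none. The interaction terms of the 9 ran from -0.12 (SE 0.21) for SUPT4H1 to 0.21 (SE 0.25) for SUPT6H on the log2 scale, and that of MEPCE, with its low replicate 1 libraries, had an SE of 0.59. Without replicate 1 of siControl, siNELFA and siYAP they ran from -0.28 (SE 0.15) for MEPCE to 0.13 (SE 0.12) for CDK9. Comparisons with siControl share its 3 libraries, so a low or high siControl library moves all of them at once.

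RN7SK, the 7SK RNA that LARP7, MEPCE and HEXIM1 bind, lay between 10624 and 13426 CPM in all 12 libraries and had log2 fold changes of 0.14 (SE 0.14), 0.11 (SE 0.13) and 0.08 (SE 0.081) in siNELFA, siYAP and siNELFA+siYAP against siControl. HEXIM2, the paralogue of HEXIM1, stood at 0.03 (SE 0.36), -0.20 (SE 0.37) and -0.34 (SE 0.38) in the same order. None of these passed the adjusted threshold, and RN7SK has near-identical copies in the genome with which its reads could have been split.

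A list of 44 further elongation genes in 7 groups gave the surroundings of the 9, with 43 of them tested against siControl. In siNELFA none passed the adjusted threshold in edgeR without a block. There 2 had an unadjusted p under 0.05, both lower, against 4.46% of all genes. DESeq2 called 1, NELFA, when it called 0.158% of all genes. With the replicate block, which called 5.21% of all genes, 1 of 43 rose and 4 fell, of which NELFA, the target itself, fell by 1.64 on the log2 scale (SE 0.17, adjusted p = 0.000385). MLLT1, a subunit of the super elongation complex that carries P-TEFb, fell by 0.80 (SE 0.16, edgeR adjusted p = 0.0144 with the block). TCEA1, which rescues backtracked polymerase, fell by 0.43 (SE 0.11, adjusted p = 0.0405), and SUPT16H, a subunit of the histone chaperone FACT, fell by 0.41 (SE 0.096, adjusted p = 0.0271). POLR2L, a small polymerase subunit, rose by 0.72 (SE 0.17, adjusted p = 0.0283). Part of its size came from siControl replicate 1, at 26.1 CPM against 67.9 and 66.7 in the other siControl libraries. Without the replicate 1 pair and without the block it was 0.42 (SE 0.11, edgeR adjusted p = 0.164). With the block and without that pair it was 0.42 (SE 0.094, edgeR adjusted p = 0.000164), in a fit that called 15.7% of all genes. The values of the 4 that fell were then -1.77 for NELFA, -1.02 for MLLT1, -0.40 for TCEA1 and -0.34 for SUPT16H. Without the block their adjusted p was 1.00 for all but NELFA, at 0.381.

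In the double knockdown NELFA was the single one of these 43 genes called by edgeR without a block, with a log2 fold change of -1.94 (SE 0.16, adjusted p = 0.0199), and DESeq2 called 3, all lower: NELFA, MLLT1 and TCEA1, when it called 7.65% of all genes. MLLT1 had -1.10 (SE 0.24, edgeR adjusted p = 0.0862) and TCEA1 -0.77 (SE 0.15, adjusted p = 0.0802), below siControl in every library. Without siControl replicate 1 they had -1.32 (SE 0.094) and -0.65 (SE 0.097), and 4 of 44 genes of the list were called higher and 7 lower where 24.4% of all genes were called. The 6 elongation and chromatin passage factors, among them TCEA1 and SUPT16H, had a median of -0.35, the 8 tested genes of the super elongation complex one of -0.32, and the 11 polymerase subunits one of 0.17, against -0.03 over all genes. Without siControl replicate 1 these medians were -0.33, 0.01 (9 tested) and 0.05, against 0.00. In siYAP none of 43 genes was called by edgeR or DESeq2. In edgeR 0 had an unadjusted p under 0.05, against 1.3% of all genes, and the median was -0.03, against 0.00 over all genes. In siNELFA+siYAP against siYAP edgeR called none of 44. At an unadjusted p under 0.05, which 15.5% of all genes passed, 3 were higher and 3 lower. DESeq2, which called 4.36% of all genes, called NELFA and MLLT1, both lower. Against siNELFA neither tool called any of 43. In edgeR 1 was lower at an unadjusted p under 0.05, which 6.62% of all genes passed.

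**Figure D5:**
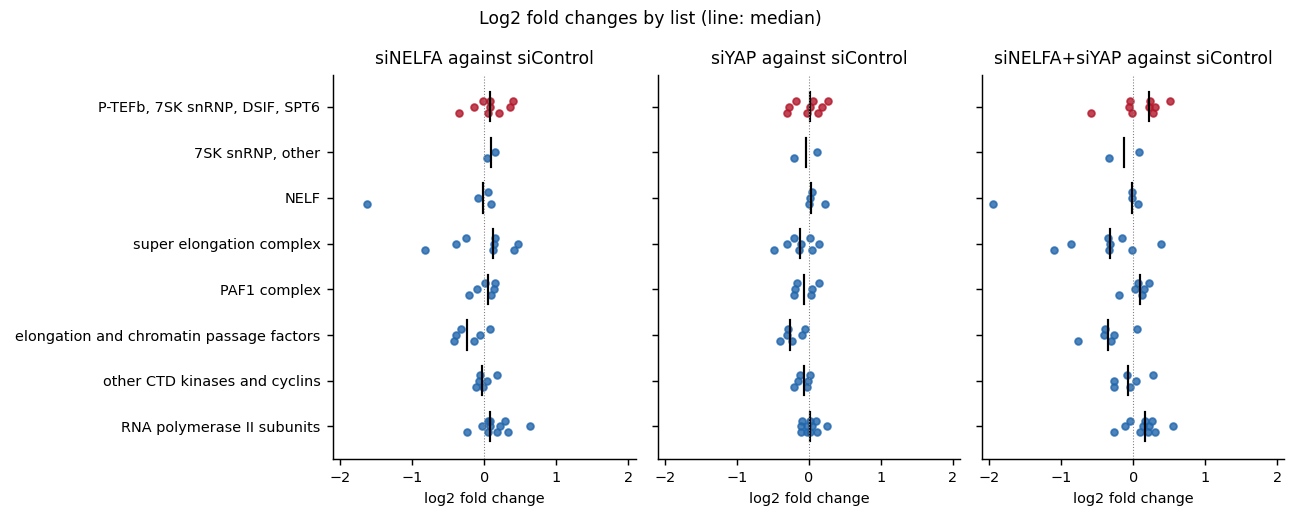
Log2 fold changes against siControl of the 9 genes (red) and of 44 further elongation genes in 7 lists (blue), 1 point per tested gene, with the list median as a line. NELFA is the point at -1.63 in siNELFA and -1.94 in siNELFA+siYAP.

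Genes with the most similar pattern over the 12 libraries were sought among those averaging at least 50 counts, by Pearson correlation of log2 CPM, which is given as a description because the libraries share groups and replicate effects. CDK9 was followed most closely by NCLN (r = 0.991) and ROMO1 (0.988), and SUPT6H by ANGPTL4 (0.992) and LCP1 (0.987). TOR3A (0.987) was one of the closest pair for MEPCE, and SUPT5H was followed by SESN2 (0.970) and SLC10A3 (0.965). For HEXIM1 the closest were DMXL1 (0.951) and CCL28 (0.931), for LARP7 PKN2 (0.941) and IPMK (0.935), for CCNT1 PTPN11 (0.951) and CDV3 (0.947), for CCNT2 C2orf49 (0.911) and QKI (0.909), and for SUPT4H1 RPS20 (0.889) and LMAN2 (0.877). None of the genes named here stayed among the closest pair of their gene when the replicate 1 library of every group was left out. MEPCE and TOR3A then had r = 0.822 over 8 libraries, and CDK9 and NCLN 0.911.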

How the data were processed

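The authors aligned the reads to GRCh38 (Ensembl release 87) by STAR in 2-pass mode and counted them on genes by featureCounts. These counts were deposited unnormalized, as whole numbers, and TPM from the authors' own estimate was deposited beside them. An FPKM table was not used. The options and strand setting of the counting are not given in the sources used here.

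Each comparison was fitted to the 6 libraries of its groups, and the interaction to all 12, with edgeR 4.0.16 (TMM, quasi-likelihood test; filterByExpr with a minimum of 10 counts, total of 15 and proportion of 70%) in R 4.3.3, adjusting p by Benjamini-Hochberg over all genes kept. Standard errors are the log2 fold change divided by the square root of F. Non-overlap means that all libraries of one group lay above all of the other in CPM. The fits were tested on simulated data. p-values measure the spread between 3 libraries a group, given as biological replicates in the study's methods. For siNELFA+siYAP the labels leave this unsettled, so p-values of its comparisons may partly measure spread within a single experiment. Over genes averaging at least 50 counts, its first library minus the mean of its others in log2 CPM had an SD of 0.193. That SD was 0.792 in siControl, 0.723 in siNELFA and 0.755 in siYAP. The cause of the smaller SD was not tested. Depth was 9608145 to 18803104 counts, which limits low counts most.

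Alternatives were DESeq2 1.42.0, RLE factors, no filter, at least 10 counts in every library, all 12 libraries in one fit, a replicate block, limma 3.58.1 on log2 TPM (pseudocounts 1 and 0.1; mean TPM of at least 1) and leaving out each library. Leaving out replicate 1 of siControl, siNELFA and siYAP together (with and without the block in siNELFA against siControl), and levels over replicates 2 and 3, were added after seeing the data. Libraries with the same number in the labels deviated together in siControl, siNELFA and siYAP (correlations over 12971 genes of 0.650 to 0.889). They did not deviate together with siNELFA+siYAP (-0.0514 to 0.0276). Libraries with different numbers were not correlated, and a shift of replicate 1 moves replicates 2 and 3 the other way around the group mean. These correlations therefore cannot show whether replicates 2 and 3 pair between the first 3 groups.

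The 9 genes and all lists were chosen with earlier results of these data known. Named were these 9, the targets, markers, other elongation genes called at an adjusted p of 0.05 in either fit, blocked or not (at most 4 per list and comparison), and for each of the 9 the 2 genes averaging at least 50 counts with the highest correlation of log2 (CPM + 0.5). RN7SK, HEXIM2 and the double-knockdown values of MLLT1 and TCEA1 were named after their values were seen. Some genes are not reported here and were left out of the lists. Promoter windows are from RefSeq (GRCh38.p14; all 9 genes matched), and positions, exon lengths and GC content are from GENCODE release 44, with a GC value for 99% of the 12971 genes. Figures were drawn with matplotlib.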

Additional observations from a re-analysis of the deposited data

How the results depend on the processing

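None of the 9 genes was called in any comparison under any alternative with all libraries, and leaving out 1 library called 0 to 1 of the 9 in siNELFA+siYAP against siControl and 0 to 2 in siNELFA+siYAP against siYAP. With the block and without the replicate 1 pair, 1 of the 9 was called in siNELFA against siControl. Of 657 alternative values of their log2 fold changes, 606 kept direction and side of the threshold. TPM turned the sign of CCNT1 (-0.30 and -0.32 with pseudocounts of 1 and 0.1), CCNT2 (-0.15 and -0.16), SUPT5H (-0.28 and -0.29) and SUPT6H (-0.22 for both) in siNELFA, of HEXIM1 (-0.04), SUPT5H (-0.14) and SUPT6H (-0.05) in siYAP, of SUPT5H (-0.07) in siNELFA+siYAP against siControl, and of CCNT1 (0.27 and 0.28) in siNELFA+siYAP against siNELFA. The replicate block turned MEPCE to 0.04 in siNELFA+siYAP against siYAP and with all libraries changed no call among the 9. The replicate numbers do not pair siNELFA+siYAP with the other groups. In its comparisons and in the interaction the block is therefore no check of pairing.

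With libraries left out, the log2 fold changes that crossed 0 ranged as follows. In siNELFA they were -0.03 to 0.21 for CCNT2, -0.35 to 0.28 for MEPCE and -0.09 to 0.19 for SUPT6H. In siYAP they were -0.20 to 0.37 for CDK9, -0.0027 to 0.12 for HEXIM1, -0.42 to 0.001 for LARP7, -0.07 to 0.54 for MEPCE, -0.11 to 0.06 for SUPT4H1 and -0.12 to 0.14 for SUPT6H. In siNELFA+siYAP against siControl they were -0.05 to 0.02 for CCNT1, -0.15 to 0.10 for CCNT2, -0.12 to 0.01 for HEXIM1 and -0.11 to 0.48 for MEPCE. For MEPCE they were -0.31 to 0.16 in siNELFA+siYAP against siYAP and -0.05 to 0.44 against siNELFA. The cause was not tested.

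Calls over all genes moved far more. In siNELFA against siControl edgeR called 1 gene, DESeq2 28, the block 924 and fits without a block and with libraries left out 0 to 18. With the block and without the replicate 1 pair 2835 genes were called. In siNELFA+siYAP against siControl the counts were 75, 1342, 2 with the block, 381 without a filter, 17 to 19 on TPM, and 0 to 4531 with a library left out. Against siYAP they were 6, 749, 1, 222, 4 to 5 and 0 to 2937, and against siNELFA 1, 45, 1, 26, 5 and 1 to 228. The 4531, 2937 and 228 came without replicate 1 of siControl, siYAP and siNELFA. In siYAP against siControl edgeR called 1 gene and the alternatives 0 to 3. The rank of the siControl level was the same in CPM per kilobase as in TPM for CDK9 alone. A single library of 9608145 counts sets the depth of the lowest values.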
